A study of Mus musculus with 4 samples.

Results

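The data describe 9 genes whose secreted products are common in cells that have entered senescence, in cultured muscle stem cells (MuSC, satellite cells) with and without Prmt5. The genes are Il6, Cxcl1, Cxcl5, Ccl2, Ccl7, Mmp3, Mmp13, Gdf15 and Tnfrsf11b, and they were chosen by name to ask whether the arrest with high p21 in Prmt5-deficient MuSC comes with secretion. Of the 20065 genes with a row in the deposited table, 6 were members. Il6, Cxcl5 and Mmp3 have no row and were not analysed here, and the lowest mean over all libraries in the table is 0.900 reads after scaling by the authors. The total RNA of MuSC was sequenced after depletion of ribosomal RNA, so that transcripts and not secreted proteins were measured.

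Both groups came from limb and trunk muscle of adult C57BL/6 mice, carried the Pax7CreERT2 allele and had received tamoxifen (TAM). The control group, labelled wild type, was Pax7CreERT2/Prmt5+/loxP and so held 1 loxP allele of Prmt5. The Prmt5sKO group, labelled PRMT5 KO, was Pax7CreERT2/Prmt5loxP/loxP and held 2. The methods of the study describe sorting by surface markers or by a fluorescent reporter, and do not say which was used for these libraries. They also describe 4 days of 4-OH-TAM in culture and 5 further days before analysis. The Cre recombinase is made where Pax7 is expressed, so that cells in which Pax7 was never expressed keep their Prmt5 alleles. Each group had 2 libraries, and nothing in the labels ties them to separate animals, so that p-values measure the spread between these libraries.

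Senescent cells leave the cell cycle for good under the inhibitors p21 and p16, and many of them release cytokines, chemokines and proteases, which is called the senescence-associated secretory phenotype. The transcription factors NF-kB and C/EBPbeta are known to drive Il6 and the chemokine genes, fed by interleukin-1 and by the DNA sensor cGAS. In regenerating muscle, Ccl2 and Ccl7 attract monocytes through the receptor Ccr2, whereas Il6 acts on MuSC and immune cells through gp130.

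The upstream sequences that bear on these regulators come from RefSeq (GRCm38.p6), which gave a promoter for 5 of the 9 members, namely Il6, Cxcl1, Mmp3, Mmp13 and Gdf15. Shown are the 250 bases before the start of transcription of Cxcl1 (chr5:90890995-90891244, plus strand), Gdf15 (chr8:70632457-70632706, minus strand) and Il6 (chr5:30012864-30013113, plus strand), since Cxcl1 and Gdf15 were read in every library while Il6 has no row. All are written 5′ to 3′ on the strand of the gene, with matches to the searched motifs in capitals.

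Cxcl1: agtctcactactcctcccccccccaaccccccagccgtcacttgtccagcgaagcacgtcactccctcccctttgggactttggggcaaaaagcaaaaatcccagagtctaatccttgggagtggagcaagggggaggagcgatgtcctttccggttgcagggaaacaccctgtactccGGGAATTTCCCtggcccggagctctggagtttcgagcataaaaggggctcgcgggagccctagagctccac

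Gdf15: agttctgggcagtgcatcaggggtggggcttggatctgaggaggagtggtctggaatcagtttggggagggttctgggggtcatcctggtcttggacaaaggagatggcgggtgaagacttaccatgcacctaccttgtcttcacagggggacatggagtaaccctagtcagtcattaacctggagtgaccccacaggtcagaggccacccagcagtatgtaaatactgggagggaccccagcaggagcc

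Il6: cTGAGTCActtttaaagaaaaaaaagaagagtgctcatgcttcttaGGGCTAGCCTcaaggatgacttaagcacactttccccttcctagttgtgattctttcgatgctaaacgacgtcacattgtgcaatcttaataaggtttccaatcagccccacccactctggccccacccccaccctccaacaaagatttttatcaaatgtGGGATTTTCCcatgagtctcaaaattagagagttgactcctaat

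Both strands were searched for the NF-kB motif, the AP-1 motif TGANTCA, the combined C/EBP-ATF motif TGATGNAA, the p53 half-site and the TATA box TATAAA. The capitals in Cxcl1 are 2 overlapping NF-kB matches that begin at positions -71 and -70. Those in Il6 are an AP-1 match at -249, a p53 half-site at -204 and an NF-kB match at -44. Gdf15 held no match to any of these motifs, and none of the 5 members held the C/EBP-ATF motif. Sites for C/EBP alone, such as those of C/EBPbeta, were not searched for. Their presence or absence in these promoters, that of Il6 included, is therefore not shown by the capitals. The promoters of the collagenase gene Mmp13 and the stromelysin gene Mmp3 held an AP-1 match at -35 and -46. Mmp13 also held a p53 half-site at -86 and a TATA box at -16, and Mmp3 a TATA box at -7. Among 32536 RefSeq windows of this length, 7.28% held the NF-kB motif, 6.73% AP-1, 3.40% C/EBP-ATF, 7.12% the p53 half-site and 12.3% the TATA box. These matches describe letters in the sequence and are no evidence of binding.

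The libraries held between 13240754 and 20047430 reads in genes, and within each group they are named by depth as deeper and shallower, because the deposited values carry no replicate numbers. A normalized count is the number of reads scaled to the mean library size by the trimmed mean of M-values (TMM). In this order, Prmt5 read 2273 and 2906 normalized counts in control MuSC and 244 and 202 in Prmt5sKO MuSC, so that the targeted gene was lower in both libraries labelled as knockout (log2 fold change -3.52, SE 0.27, adjusted p = 0.193 by limma-voom with Benjamini-Hochberg adjustment). Cdkn1a, which encodes p21, read 3379 and 2057 against 8358 and 15703 (log2 fold change 2.13, SE 0.38, adjusted p = 0.214). With the crossed pairing of the libraries as a block, both were called by limma-voom (adjusted p = 0.011 for Prmt5 and 0.018 for Cdkn1a). With the deeper libraries paired, neither was called by limma-voom (adjusted p = 0.229 for Prmt5 and 0.274 for Cdkn1a). Which pairing is the true one is not known. The MuSC gene Pax7 read between 2570 and 3664 normalized counts in the 4 libraries, and Myf5 and Myod1 were expressed in each as well. Within each group the libraries differed from each other. The shallower Prmt5sKO library had a summed level of 218098 normalized counts over 10 markers of differentiating muscle, where the other libraries had 5909 to 16272. The shallower control library read below the deeper one in most secreted factors, as described further on. Across the 16212 genes with a mean of at least 5 normalized counts, limma-voom called 0 genes (0.0%) when both a fold change of 2 and an adjusted p of 0.05 were required. With DESeq2 at the same fold change and adjusted p, the study did report changed genes. It also found higher p21 in Prmt5-deficient MuSC by RT-qPCR. At an unadjusted limma-voom p under 0.05, 975 genes were higher and 1126 lower in Prmt5sKO. With limma-trend the number of called genes was 1. It was 489 when the deeper and 55 when the shallower Prmt5sKO library was left out, and no member was among them.

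Of the 6 members with a row, Ccl2, Ccl7, Cxcl1 and Gdf15 lay with both Prmt5sKO libraries above both controls, and Mmp13 and Tnfrsf11b overlapped between the groups. Across all 20065 genes, 24.1% lay wholly higher in this way and 21.8% wholly lower. The differences were largest in Ccl2 and Ccl7, which were close to absent from control MuSC, and smaller in Gdf15, which was read well in every library. None of the members passed the adjusted threshold. An exact permutation test of 2 libraries against 2 cannot give a two-sided p below 0.333.

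**Figure D1:**
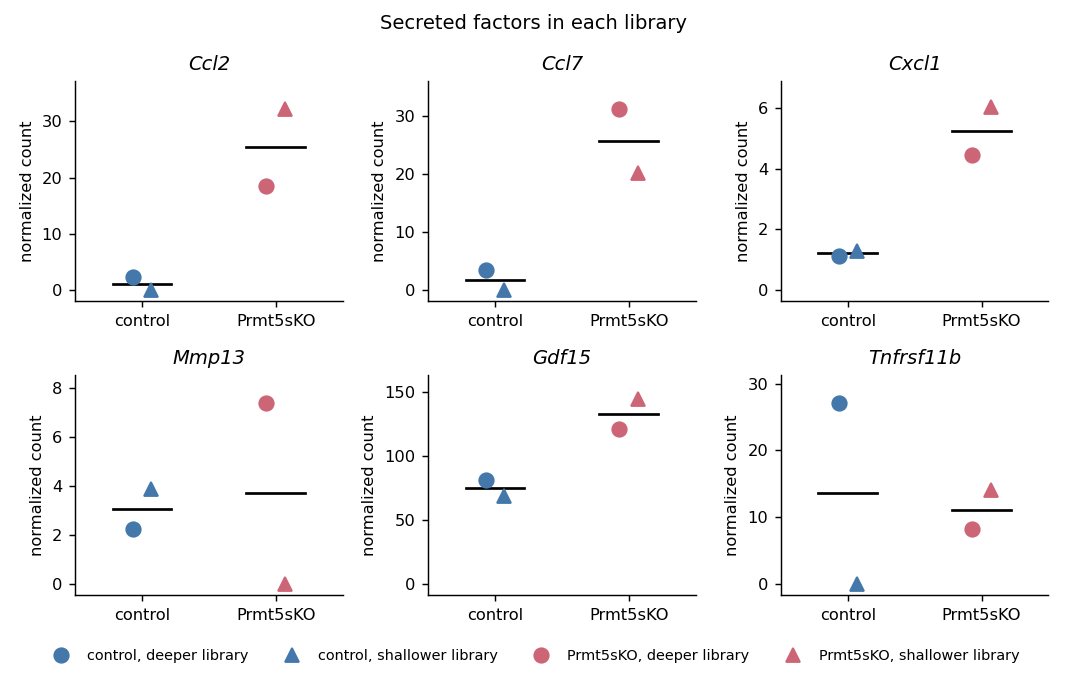
Normalized counts of the 6 members with a row in each of the 4 libraries. The vertical axis of each panel is the normalized count, circles are the deeper and triangles the shallower library of each group, and black lines are group means. Ccl2, Ccl7, Cxcl1 and Gdf15 lie higher in both Prmt5sKO libraries, whereas Mmp13 and Tnfrsf11b overlap.

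The chemokine genes held few reads in control MuSC. Ccl2 (ENSMUSG00000035385, GRCm38 chr11:82035571-82037453, plus strand) encodes the main monocyte attractant MCP-1. Control MuSC had 2 reads of it in the deeper library and 0 in the shallower one, and Prmt5sKO MuSC had 25 and 32, again with the deeper library first. On the normalized scale these were 2.26 and 0 counts against 18.5 and 32.2, so that both Prmt5sKO libraries lay far above both controls.

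The mean level of Ccl2 was 1.13 ± 1.60 normalized counts in control and 25.4 ± 9.66 in Prmt5sKO MuSC (SD, n = 2). The ratio of the depth-corrected group sums, 57 reads against 2, was 20.1 with an exact 95% interval of 5.32 to 170, which covers counting error only. Limma-voom gave a log2 fold change of 4.16 (SE 1.39) with an adjusted p of 0.327. Its unadjusted p was 0.024, a level that 6.01% of all genes tested reached in this direction. Ccl2 passed the filter on low counts through the Prmt5sKO libraries alone. The gene Gm17268 lies across it on the other strand without sharing exons and has no row in the table.

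Ccl7 (ENSMUSG00000035373, chr11:82045712-82047525, plus strand) encodes MCP-3, another ligand of Ccr2, and starts 8258 bases after the end of Ccl2. It had 3 and 0 reads in control, against 42 and 20 in Prmt5sKO, or 3.39 and 0 against 31.1 and 20.1 normalized counts. Again both Prmt5sKO libraries lay above both controls, but here the deeper Prmt5sKO library was the higher one, while for Ccl2 it was the shallower.

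The mean of Ccl7 was 1.70 ± 2.40 normalized counts in control and 25.6 ± 7.78 in Prmt5sKO MuSC (SD, n = 2). The ratio of the group sums, 62 reads against 3, was 14.6 with a counting interval of 4.77 to 72.7. The log2 fold change was 3.97 (SE 1.37) with an adjusted p of 0.332 by limma-voom. Like Ccl2, Ccl7 passed the filter only through Prmt5sKO.

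Leaving out a library changed the size of these differences. Their direction could not change, because both Prmt5sKO libraries lay above both controls for each gene. Without the shallower control library, in which both genes had 0 reads, the log2 fold change was 3.11 for Ccl2 and 2.72 for Ccl7, each with an adjusted p of 0.968. In that fit the unadjusted limma-voom p was 0.117 for Ccl2 and 0.123 for Ccl7. Without the deeper control library the values were 5.21 and 5.31. Without the shallower Prmt5sKO library, which stood apart in muscle differentiation genes, they were 3.80 and 4.30.

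Cxcl1 (ENSMUSG00000029380, chr5:90891241-90893115, plus strand) encodes the neutrophil attractant KC, and its promoter with the NF-kB matches is printed above. It had 1 and 1 reads in control and 6 and 6 in Prmt5sKO MuSC, that is 1.13 and 1.30 against 4.45 and 6.03 normalized counts. The groups did not overlap, but every value was low.

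The mean of Cxcl1 was 1.21 ± 0.118 in control and 5.24 ± 1.12 in Prmt5sKO (SD, n = 2). The ratio of the group sums was 4.24 with a counting interval of 0.944 to 39.0, which includes equal levels. Cxcl1 did not pass the filter on low counts. In the fit without that filter its log2 fold change was 1.61 (SE 1.19) with an adjusted p of 0.612 by limma-voom. The gene of the related neutrophil attractant, Cxcl5 (ENSMUSG00000029371, chr5:90759360-90761624), ends 129616 bases before Cxcl1 and has no row.

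The interleukin gene Il6 (ENSMUSG00000025746, chr5:30013114-30019981), the cytokine most often used to mark the secretory phenotype, has no row in the table. No value can therefore be given for it in either group.

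Among the proteases, Mmp13 (ENSMUSG00000050578, chr9:7272514-7283331, plus strand) encodes collagenase 3, which cuts fibrillar collagen. It had 2 and 3 reads in control and 10 and 0 in Prmt5sKO, or 2.26 and 3.89 against 7.41 and 0 normalized counts. The Prmt5sKO libraries were the highest and the lowest of all, so that the groups overlapped.

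The mean of Mmp13 was 3.08 ± 1.15 normalized counts in control and 3.70 ± 5.24 in Prmt5sKO (SD, n = 2). The ratio of the group sums was 1.41 with a counting interval of 0.440 to 5.27. Without the filter on low counts, limma-voom gave a log2 fold change of -0.68 (SE 1.59, adjusted p = 0.882), the opposite sign to the ratio of the sums. Mmp3 (ENSMUSG00000043613, chr9:7445822-7455975), the stromelysin gene, has no row.

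Gdf15 was the member with the most reads. Gdf15 (ENSMUSG00000038508, chr8:70629393-70632456, minus strand) encodes a stress-induced member of the TGF-beta family that acts through Gfral and Ret in the brainstem and is a known target of p53 and of the integrated stress response. It had 72 and 53 reads in control and 163 and 144 in Prmt5sKO, or 81.4 and 68.7 against 121 and 145 normalized counts. Both Prmt5sKO libraries lay above both controls.

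The mean of Gdf15 was 75.0 ± 8.93 normalized counts in control and 133 ± 17.0 in Prmt5sKO MuSC (SD, n = 2). The ratio of the group sums was 1.74 with a counting interval of 1.40 to 2.15, the narrowest among the members. The log2 fold change was 0.79 (SE 0.40) with an adjusted p of 0.443 by limma-voom. It lay between 0.68 and 0.94 over 12 alternative fits, and in 0 of them was the unadjusted p under 0.05. The difference was thus small and stable in size beside that of the chemokines.

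Tnfrsf11b (ENSMUSG00000063727, chr15:54250619-54278484, minus strand) encodes osteoprotegerin, the soluble decoy receptor that binds RANKL. It had 24 and 0 reads in control and 11 and 14 in Prmt5sKO, or 27.1 and 0 against 8.15 and 14.1 normalized counts. The control libraries were the highest and the lowest of all, and both Prmt5sKO libraries lay between them.

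The mean of Tnfrsf11b was 13.6 ± 19.2 normalized counts in control and 11.1 ± 4.19 in Prmt5sKO (SD, n = 2). The ratio of the group sums was 0.736 with a counting interval of 0.403 to 1.35, whereas limma-voom gave a log2 fold change of 1.24 (SE 1.67, adjusted p = 0.762). The direction depended on 1 library: when the shallower control library was left out the log2 fold change was -1.34, and when the deeper one was left out it was 4.05.

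**Figure D2:**
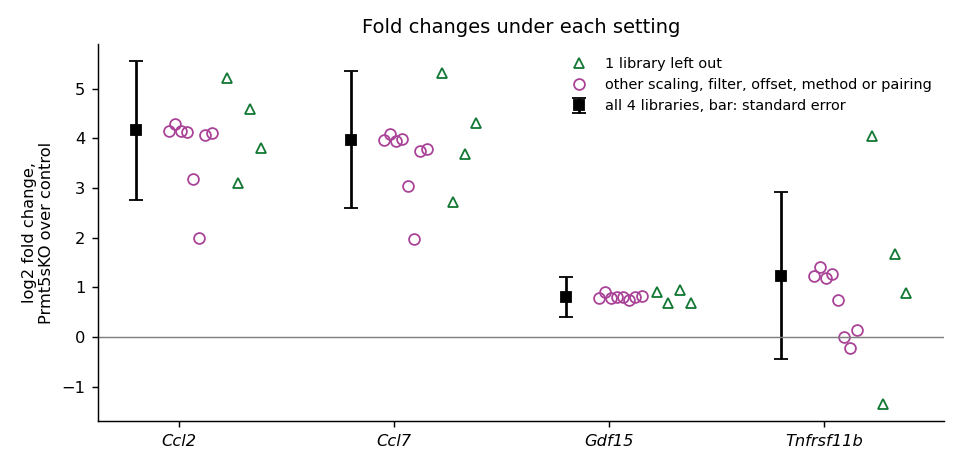
Log2 fold change of the 4 members that passed the filter on low counts, Prmt5sKO over control, under each setting. Black squares with bars are the fit of all 4 libraries with its standard error, circles are fits with another scaling, filter, offset, method or pairing, and triangles are fits with 1 library left out. Ccl2 and Ccl7 stay above 0 and spread from 1.96 to 5.31, Gdf15 spreads from 0.68 to 0.94, and Tnfrsf11b lies on both sides of 0.

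The fitted size of the chemokine differences depended on the small number added before the logarithm. With 5 in place of 0.5 counts added, the log2 fold change of Ccl2 was 1.99 and that of Ccl7 1.96. Both genes entered these fits only through the Prmt5sKO libraries.

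Per length, as RPKM (normalized reads per kilobase of exon at a common depth), Gdf15 had the highest mean level of the members in Prmt5sKO MuSC, 4.44 ± 0.569 (SD, n = 2), above Ccl7 with 1.98 ± 0.602. Ccl2 followed with 1.38 ± 0.526. The library ranges of Ccl7 (1.56 to 2.41) and Ccl2 (1.01 to 1.75) overlapped, so that these neighbours did not differ beyond their spread.

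The lower members in Prmt5sKO were Tnfrsf11b (0.244 ± 0.0922), Cxcl1 (0.173 ± 0.0371) and Mmp13 (0.0859 ± 0.121), whose ranges overlapped from each to the next. In control MuSC the level of Gdf15 was 2.51 ± 0.299 and that of Tnfrsf11b 0.298 ± 0.422, on the same scale. The other members lay between 0.0401 for Cxcl1 and 0.131 for Ccl7, and below Gdf15 each overlapped with its neighbours. Every member was rare beside Cdkn1a, whose level was 47.4 in control and 210 in Prmt5sKO.

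Among all genes tested, the 2 with the pattern over the 4 libraries most like each member were found by the Euclidean distance of centred log2 values, after 0.5 had been added to each normalized count. For Ccl2 these were Lhfpl1 (distance 0.38) and Cd180 (0.57). For Ccl7 they were Zfp960 (0.39) and Dusp15 (0.60), and for Tnfrsf11b Gm25632 (0.28) and Epb41l4b (0.40). All of these had 0 counts in the shallower control library, as did the member each was nearest to. For Gdf15 they were Mgrn1 (0.06) and Trappc6a (0.07).

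The receptors through which the members act were tested next. The list of 17 receptors and partners had 8 rows. The 9 without a row include Cxcr1, Cxcr2, Ccr1, Ccr2 and Ccr3, through which the chemokines signal, and Ackr1, Gfral and Tnfsf10. Of the 7 genes past the filter, 2 were higher and 0 lower at an unadjusted p under 0.05 (6.01% and 6.95% of all genes), and the median log2 fold change was 0.03, against 0.02 for all genes tested.

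Ackr4, a receptor that takes up the chemokines Ccl19, Ccl21 and Ccl25 without signalling, read 4.52 and 1.30 normalized counts in control and 55.6 and 36.2 in Prmt5sKO. Its log2 fold change was 3.85 (SE 1.09, adjusted p = 0.285), from 5 reads in control and 111 in Prmt5sKO. Ackr2, the scavenger of inflammatory CC chemokines such as Ccl2 and Ccl7, had 0 and 0 reads in control and 7 and 6 in Prmt5sKO. Against a floor of 3 counts over the control group this was at least 3.06-fold higher, and the exact 95% interval of the ratio, which also covers the counting error of the reads in Prmt5sKO, began at 2.15. The mean of Ackr2 was below the filter, and Ackr4 passed it only through the Prmt5sKO libraries. Both scavenger genes lay wholly higher in Prmt5sKO at low levels.

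Ret, the signalling partner of the Gdf15 receptor and of GDNF receptors, read 194 and 275 normalized counts in control and 1154 and 422 in Prmt5sKO (log2 fold change 1.64, SE 0.59, adjusted p = 0.347). Il6st, which encodes gp130, was the most abundant of the list, with 2065 and 2027 against 2551 and 2834 (0.39, SE 0.20). The Il6 receptor gene Il6ra read 15.8 and 24.6 against 9.63 and 12.1 (-0.86, SE 0.76). The gp130 chain thus lay higher and the specific Il6 receptor lower in both Prmt5sKO libraries, neither past an adjusted threshold.

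The partners of osteoprotegerin were rare. Tnfrsf11a (RANK) read 5.65 and 11.7 normalized counts in control and 0.741 and 3.02 in Prmt5sKO, with a log2 fold change of -2.20 (SE 1.29). This came from 14 reads in control and 4 in Prmt5sKO, and Tnfrsf11a passed the filter on low counts only through the control libraries. Tnfsf11 (RANKL) read 24.9 and 7.78 against 19.3 and 4.02 and overlapped between the groups. The atypical receptor gene Ackr3, which binds Cxcl12, read 993 and 1069 against 1305 and 835 and overlapped too.

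The members are a small part of what senescent cells release, so 72 other secreted factors were counted in 3 lists. Of these, 60 had a row and 56 passed the filter on low counts. At an unadjusted p under 0.05, 8 of the 56 were higher (14.3%) and 2 lower in Prmt5sKO, where 6.01% and 6.95% of all genes tested were. Both Prmt5sKO libraries lay above both controls in 19 (33.9%) and below them in 5 (8.93%), against 25.2% and 23.6% of all genes tested. Among the wholly higher factors, Il1b, Hgf and Mmp9 passed the filter only through Prmt5sKO, and the wholly lower Timp4 passed it only through control. The median log2 fold change of the 56 factors was 0.63, against 0.02 for all genes tested.

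This median depended on each of the control libraries. Within the control group the deeper library read above the shallower in 45 of the 56 factors (80.4%), with a median log2 difference of 0.98, where 51.3% of all genes tested did so. Within the Prmt5sKO group the deeper library was above in 32 of 56 (57.1%). Without the shallower control library the median of the 56 factors was 0.04, with 6 higher (10.7%) and 2 lower at an unadjusted p under 0.05, where 1.51% of all genes in that fit were higher and 2.53% lower. Without the deeper control library it was 1.14, with 15 higher (26.8%) and 2 lower, against 3.89% and 5.05% of all genes. With the libraries paired as blocks, 12 factors (21.4%) were higher when the deeper libraries were paired and 18 (32.1%) when the pairing was crossed, against 6.33% and 10.6% of all genes. The values cannot show which of the control libraries is the unusual one, and what sets them apart was not tested.

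**Figure D3:**
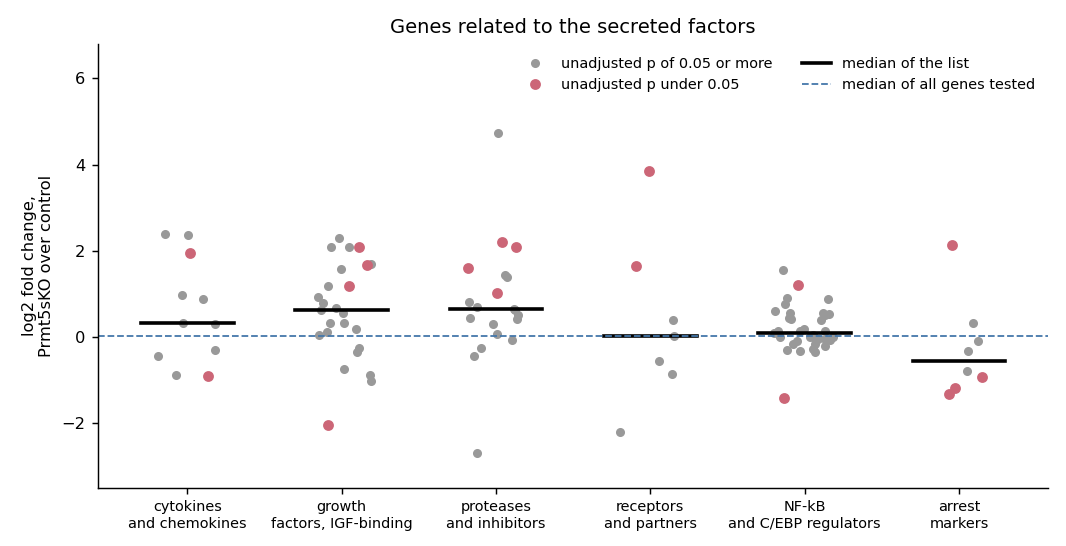
Log2 fold changes of the related genes past the filter on low counts, Prmt5sKO over control, with 1 point per gene. Red points have an unadjusted limma-voom p under 0.05, black bars are list medians and the dashed line is the median of all genes tested. The medians of growth factors (0.63) and proteases (0.64) lie above the dashed line at 0.02, and that of the arrest markers (-0.57) lies below it.

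In the list of cytokines and chemokines, 14 of 24 genes had a row and 11 were tested, of which 1 was higher and 1 lower at an unadjusted p under 0.05 (6.01% and 6.95% of all genes), with a median log2 fold change of 0.33. The membrane-bound chemokine Cx3cl1 read 529 and 143 normalized counts in control and 1254 and 938 in Prmt5sKO (log2 fold change 1.94, SE 0.54, adjusted p = 0.284). Cxcl12, the ligand of Cxcr4, read 7824 and 6697 against 5388 and 2768 (-0.91, SE 0.34, adjusted p = 0.355). The list thus held chemokines on either side.

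The cytokine genes nearest to the interleukin part of the phenotype were low. Il1b read 3.39 and 6.48 normalized counts in control and 16.3 and 49.3 in Prmt5sKO (2.38, SE 1.15). Lif, a gp130 cytokine known to keep myoblasts dividing, read 26.0 and 7.78 against 141 and 40.2 (2.40, SE 1.08). Both lay wholly higher in Prmt5sKO and neither had an unadjusted p under 0.05. Il1b passed the filter on low counts only through the Prmt5sKO libraries.

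The 2 most abundant factors of this list, Spp1 and Csf1, overlapped between the groups. Spp1, which encodes osteopontin, read 67630 and 12236 normalized counts in control and 72574 and 39107 in Prmt5sKO. Csf1, the macrophage growth factor, read 31996 and 23508 against 27968 and 17747. Mif read 1609 and 2022 against 1295 and 1339 and lay lower in both Prmt5sKO libraries (-0.45, SE 0.21). The median of the list was -0.32 without the shallower control library and 1.48 without the shallower Prmt5sKO library.

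All 25 growth factors and IGF-binding proteins were tested, and 3 were higher (12.0%) and 1 lower at an unadjusted p under 0.05, against 6.01% and 6.95% of all genes. Igfbp5, the IGF-binding protein that is known to increase early in myoblast differentiation and in senescent fibroblasts, read 2674 and 1901 normalized counts in control and 8884 and 10245 in Prmt5sKO. Its log2 fold change was 2.08 (SE 0.25) with an adjusted p of 0.198 by limma-voom. The Prmt5sKO libraries lay close together and far above both controls.

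Igfbp4 read 131 and 145 against 283 and 356 (1.19, SE 0.33, adjusted p = 0.280) and Igfbp7 624 and 108 against 849 and 883 (1.67, SE 0.67, adjusted p = 0.377). Igfbp6 read 49.7 and 7.78 against 66.7 and 134 (2.08), and Igfbp3, the most abundant of the list after Igfbp5, 4402 and 1205 against 3385 and 5645 (0.93). Of these 5 IGF-binding proteins, of which Igfbp4 and Igfbp7 were named after their values were seen, Igfbp3 overlapped between the groups. Over the whole list, 7 of 25 genes lay wholly higher (28.0%) and 1 wholly lower, against 25.2% and 23.6% of all genes tested. For Igfbp3, Igfbp6 and Igfbp7 the shallower control library was the lowest of all.

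Hgf, the ligand of Met on MuSC, read 4.52 and 0 against 7.41 and 11.1 (2.29, SE 1.43), from 4 and 0 reads in control and 10 and 11 in Prmt5sKO. It passed the filter on low counts only through the Prmt5sKO libraries.

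In the list of proteases and their inhibitors, 21 of 23 genes had a row and 20 were tested, with 4 higher (20.0%) and 0 lower at an unadjusted p under 0.05, against 6.01% and 6.95% of all genes. Plat, which encodes tissue plasminogen activator, read 91.5 and 38.9 normalized counts in control and 291 and 278 in Prmt5sKO (log2 fold change 2.21, SE 0.47, adjusted p = 0.240). Mmp2, the gelatinase A gene, read 294 and 192 against 912 and 565 (1.59, SE 0.38, adjusted p = 0.257). Both lay wholly higher in Prmt5sKO.

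Ctsd, the lysosomal protease cathepsin D, read 8161 and 4654 against 12322 and 12578 (1.02, SE 0.31, adjusted p = 0.302). Serpine2, an inhibitor of plasminogen activators and thrombin, read 1634 and 301 against 3374 and 2754 (2.08, SE 0.70, adjusted p = 0.327). Mmp9, gelatinase B, read 6.78 and 0 against 131 and 23.1 (4.73, SE 2.18) and had the widest gap between the Prmt5sKO libraries of these genes. Mmp9 passed the filter on low counts only through the Prmt5sKO libraries. Of the 20 genes tested, 8 lay wholly higher (40.0%) and 2 wholly lower, against 25.2% and 23.6% of all genes tested.

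Among the inhibitors of metalloproteases, Timp1 read 3748 and 1901 against 4393 and 4035 (0.66) and Timp2 7096 and 3799 against 5844 and 12081 (0.70). Timp4 read 4.52 and 40.2 against 1.48 and 2.01 (-2.69), and the sheddase gene Adam17 1701 and 1643 against 1528 and 1635 (-0.08). Of these, Timp2 overlapped between the groups.

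**Figure D4:**
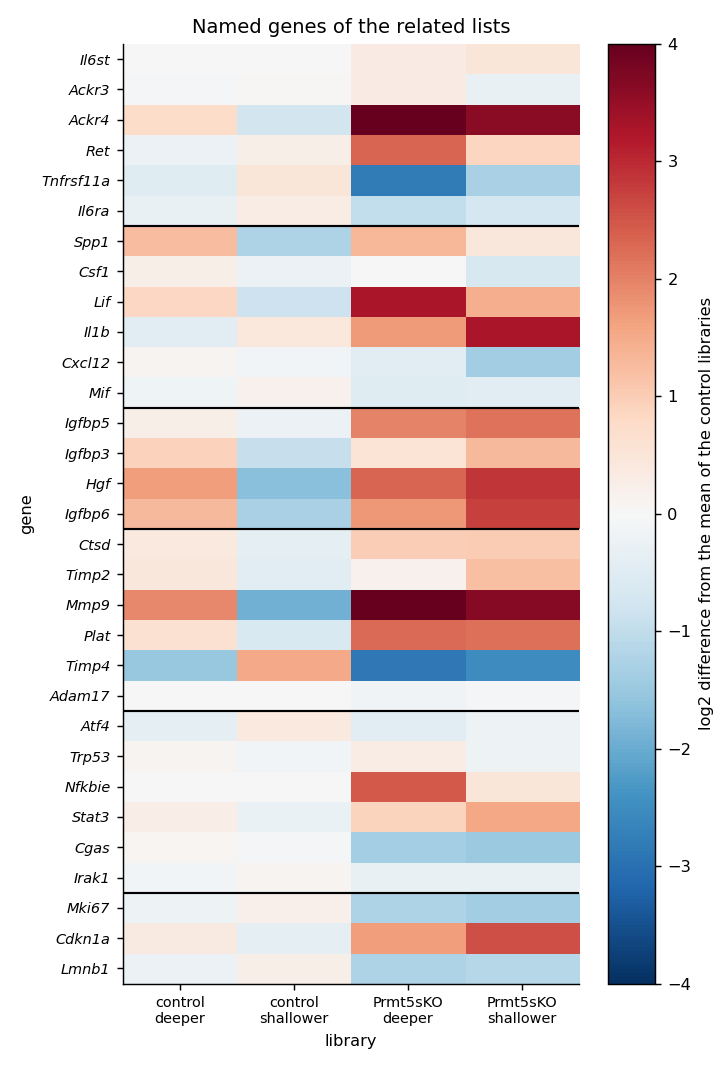
Named genes of the related lists in each library, as the log2 difference from the mean of the control libraries. Columns are the libraries, rows are genes grouped by list between black lines (receptors, cytokines, growth factors, proteases, regulators, arrest markers), red is higher and blue lower, and colours end at 4 on either side. Igfbp5, Plat, Cdkn1a and Ackr4 are red in both Prmt5sKO libraries, and Spp1, Hgf, Igfbp6 and Mmp9 are blue in the shallower control library.

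The regulators of the secretory phenotype had a median near that of all genes. Of 35 NF-kB and C/EBP regulators, all tested, 1 was higher and 1 lower at an unadjusted p under 0.05 (6.01% and 6.95% of all genes), and the median log2 fold change was 0.09. Both Prmt5sKO libraries lay above both controls in 13 (37.1%) and below them in 2 of the 35, against 25.2% and 23.6% of all genes tested. Rela read 1045 and 927 normalized counts in control and 1500 and 1153 in Prmt5sKO (0.42, SE 0.23), and Nfkb1 2058 and 2399 against 2203 and 2124 (-0.04, SE 0.20). Without the shallower Prmt5sKO library the median was 0.30, with 8 higher and 1 lower of 35, where 8.90% and 7.27% of all genes in that fit were.

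Of the NF-kB inhibitor genes, Nfkbia and Nfkbie, which NF-kB itself induces, lay wholly higher. Neither had an unadjusted limma-voom p under 0.05, and Nfkbia was named after its values were seen. Other inhibitor genes of the list, such as Nfkbib and Tnfaip3, are not reported here by name. Whether NF-kB was more active was not tested. Nfkbia read 741 and 619 normalized counts against 1239 and 809 (0.57, SE 0.29), and Nfkbie 83.6 and 81.7 against 452 and 115 (1.55, SE 0.84). Both were highest in the deeper Prmt5sKO library. Cebpb, the C/EBP factor of the phenotype, read 83.6 and 121 against 54.8 and 121 and overlapped between the groups.

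Stat3, the factor downstream of gp130, read 798 and 560 normalized counts in control and 1232 and 1971 in Prmt5sKO (log2 fold change 1.21, SE 0.32, adjusted p = 0.276). Cgas, the gene of the DNA sensor, read 173 and 157 against 64.5 and 58.3 (-1.42, SE 0.39, adjusted p = 0.276). Stat3 was the 1 regulator higher, and Cgas the 1 lower, at an unadjusted p under 0.05. Irak1, a kinase of the interleukin-1 pathway, read 1408 and 1659 against 1248 and 1235 (-0.30).

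The factors known to act on Gdf15 did not separate the groups. Trp53 read 3612 and 3146 normalized counts in control and 4159 and 2901 in Prmt5sKO (0.04, SE 0.25). Atf4, of the integrated stress response, read 4489 and 7630 against 4372 and 5036 (-0.32, SE 0.30), and Ddit3 109 and 180 against 148 and 129 (0.01, SE 0.40). These are transcript levels, and both p53 and ATF4 are known to be regulated largely after transcription.

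The list of senescent arrest holds genes known to increase, such as Cdkn1a, and genes known to decrease, such as Lmnb1, Hmgb1 and Mki67. Of 8 genes, 1 was higher and 3 lower at an unadjusted p under 0.05 (6.01% and 6.95% of all genes), with a median log2 fold change of -0.57. Beside Cdkn1a, whose values are given above, Cdkn2a, the gene of p16 and p19ARF, read 643 and 316 normalized counts in control and 445 and 756 in Prmt5sKO (0.32, SE 0.43). Cdkn2b (p15) read 346 and 258 against 210 and 279 (-0.33, SE 0.31). Both of these inhibitor genes overlapped between the groups, unlike Cdkn1a.

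Lmnb1, the lamin whose loss marks senescent nuclei, read 3635 and 4984 normalized counts in control and 1805 and 1922 in Prmt5sKO (-1.19, SE 0.23, adjusted p = 0.231). The proliferation gene Mki67 read 9130 and 12079 against 4488 and 3972 (-1.32, SE 0.23, adjusted p = 0.214), and Hmgb1 2342 and 3194 against 1494 and 1364 (-0.94, SE 0.23). Glb1, the lysosomal beta-galactosidase used as a senescence stain, read 828 and 617 against 580 and 787 and overlapped between the groups.

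The secreted factors are also made by other cells of muscle, whose markers were read in the same libraries. The immunostaining sort described in the methods of the study, before culture, keeps CXCR4+ and CD34+ cells. It removes cells with CD11b, CD45 or CD31, which leukocytes and endothelial cells carry. Whether these libraries came from this sort or from the reporter sort is not stated there. In bulk RNA, fewer cells of a type and less RNA per cell cannot be told apart. The summed level of the leukocyte markers was 177 and 158 normalized counts in control, against 177 and 123 in Prmt5sKO. Of the 10 markers, 4 (Ptprc, Adgre1, Tyrobp and Cd3e) have no row, and of the 6 tested, 3 had a log2 fold change above 0 and 3 below. The most abundant, Cd68, read 99.4 and 111 in control and 54.8 and 50.3 in Prmt5sKO, and Cd14 50.9 and 7.78 against 88.9 and 20.1. The part that leukocytes have in the secreted factors was not tested.

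The summed level of the fibroblast markers was 13607 and 6375 normalized counts in control and 14481 and 17304 in Prmt5sKO, most of it from Col3a1, and 2 of 10 (Pdgfrb and Col3a1, 20.0%) lay wholly higher in Prmt5sKO, against 25.2% of all genes. Pdgfra, which defines fibro-adipogenic progenitors, read 38.4 and 44.1 against 43.7 and 17.1, and Lum read 27.2 in the shallower control library and 0 in the others. The endothelial markers summed to 146 and 211 in control, against 141 and 118 in Prmt5sKO. The part that fibroblasts have in the secreted factors was not tested.

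The markers of differentiating muscle summed to 9816 and 5909 normalized counts in control and 16272 and 218098 in Prmt5sKO, and 8 of 10 (80.0%) lay wholly higher in Prmt5sKO, against 25.2% of all genes. Myog, the myogenic factor of early differentiation, read 1436 and 1189 against 3707 and 19508. Ccl7 and Mmp13 were higher in the deeper Prmt5sKO library, in which these markers summed to 16272, whereas Ccl2, Cxcl1, Gdf15 and Tnfrsf11b were higher in the shallower one. The fits without the shallower Prmt5sKO library, given above for Ccl2 and Ccl7, gave a log2 fold change of 0.68 for Gdf15.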

How the data were processed

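Total RNA of cultured MuSC, 2 control and 2 Prmt5sKO libraries, was sequenced on an Ion Torrent instrument after removal of ribosomal RNA. The authors used Reaper for trimming, STAR 2.4.0a for alignment to GRCm38 and, after counting per gene, DESeq2 1.62 for the comparison (versions from the submitters' processing notes). The deposited signal values are means of size-factor-normalized read counts for each group and for all libraries together. Also deposited are log2 fold changes with standard errors and p-values, raw and adjusted, which are the authors' own comparison and were not used.

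Each group mean adds whole numbers of reads in 2 units, the worth of 1 read in either library. From these units the read counts per library were recovered for 20065 of 20065 genes (100%), with totals of 14436914 and 13240754 in control and 20047430 and 16190414 in Prmt5sKO. Gene identifiers were matched to GENCODE vM21, which named 19782. Counts were scaled by TMM (trims of 30% and 5%), genes whose normalized counts averaged under 5 were dropped (16212 remained), and Prmt5sKO was compared with control by limma-voom (limma 3.58.1, R 4.3.3), two-sided, with Benjamini-Hochberg adjustment over all genes tested. The step was tested on simulated data with the same spread for every gene, which was not matched to the spread between these libraries. That test therefore does not show how well the step finds changed genes here. The reads of each member, summed per group, were also compared by their depth-corrected ratio with an exact 95% interval, and a group at 0 by a floor of 3 counts. Intervals and floors cover counting error only, since reads carried no molecular identifiers. Replicate libraries differed by more than sampling noise (chi-square per gene 64.5 in control and 118 in Prmt5sKO), so that each was counted once.

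The members and lists were chosen with earlier results of these data known. Named in each list were the 2 genes with the highest mean and up to 2 higher and 2 lower genes with the largest fold change among those that did not overlap between groups, plus Il6st, Tnfsf11 and Timp1, with Prmt5, Cdkn1a and Myog as checks and the 2 genes nearest to each member. Cx3cl1, Igfbp4, Igfbp7, Mmp2, Serpine2, Ackr2, Rela, Nfkb1, Nfkbia, Cebpb, Ddit3, Cdkn2a, Cdkn2b, Hmgb1 and Glb1 and the single markers of other cell types outside this rule were named after their values were seen. Some genes of the lists are counted in the totals but not reported here by name. Alternatives changed the scaling, the filter, the method, the offset, the libraries and the pairing. Since replicate numbers were lost in the group means, both pairings of the libraries by depth were fitted. Across 11487 genes with a mean of at least 50, the differences within groups correlated with r = -0.30 when the deeper libraries were paired and 0.30 when they were crossed.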

Additional observations from a re-analysis of the deposited data

How the results depend on the processing

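With 2 libraries per group, the precision is set by the spread between libraries and, for Ccl2, Ccl7, Cxcl1 and Mmp13, by 2 to 5 reads in control. For Ccl2, Ccl7 and Gdf15 both Prmt5sKO libraries lay above both controls, so that leaving out or pairing libraries could not reverse the sign. Their log2 fold changes kept it in 12 of 12 alternative fits, with 0 adjusted p-values at or below 0.05 (lowest 0.120, 0.174 and 0.345 by limma). That of Tnfrsf11b (-1.34 to 4.05 with a library left out) reversed in 2, to -1.34 without the shallower control library and -0.21 with the deeper libraries paired. The number of called genes was 0 in all 4 libraries, 1 with limma-trend, 489 without the deeper and 55 without the shallower Prmt5sKO library (0 to 489 over the 4 fits with a library left out, in which the lone library is assumed to vary like the other group). It was 346 with the crossed pairing as a block and 0 in the other 8 fits. With the replicate block, the log2 fold changes were 4.07 and 4.10 for Ccl2, 3.75 and 3.79 for Ccl7 and 0.80 and 0.82 for Gdf15 for the 2 pairings, deeper first, and the block changed no call of a member, while the crossed block called Prmt5 and Cdkn1a. Leaving out a library moved the median of the receptors (0.03) to between -0.30 and 0.34, that of the cytokines (0.33) to between -0.32 and 1.48, that of the growth factors (0.63) to between 0.055 and 1.10, that of the proteases (0.64) to between 0.11 and 1.14, and that of the NF-kB and C/EBP regulators (0.09) to between 0.031 and 0.30. Scaling by library size alone moved the median of all genes from 0.02 to 0.13 and that of these regulators to 0.22. The causes of these changes were not tested.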

Other observations

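Several secreted factors differed more between the control libraries than between the groups. The following genes were chosen after their values were seen. Inhba, the activin A subunit gene, read 185 and 2.59 normalized counts in control (deeper library first) and 125 and 47.3 in Prmt5sKO MuSC. Serpinb2, the plasminogen activator inhibitor of stressed cells, read 704 and 29.8 against 562 and 295. Stc1, the stanniocalcin 1 gene, read 89.3 and 20.7 against 14.1 and 37.2. Timp3 read 330 and 68.7 against 245 and 242, and Mmp14, the membrane-bound activator of Mmp2, 2243 and 673 against 2326 and 2051. For each of these genes the deeper control library lay at or above the level of 1 or both Prmt5sKO libraries. The muscle stem cell marker Cd34 had the same order within control, with 220 and 24.6 against 539 and 270.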
